A study of Mus musculus with 16 samples.

Results

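The interleukin 6 (IL-6) family cytokines *Il6*, *Lif*, and *Osm* and the receptor chains *Il6ra* and *Il6st* were examined in bulk mRNA-Seq counts of mouse lung group 2 innate lymphoid cells (ILC2s). These 5 genes were chosen by symbol, and all 5 were found among the 51912 genes of the count table. WT ILC2s and ILC2s of Pac1-/- mice, which lack the phosphatase encoded by *Dusp2*, were treated in culture for 4 hours. By the culture methods of the study, sorted lung ILC2s were first expanded with IL-2 and IL-7, which were then removed. During treatment, the medium held IL-7 alone, IL-7 and IL-33, or both of these cytokines and a neuropeptide, either CGRP or NMU. These treatments are called IL-7, IL-33, CGRP, and NMU. IL-7 was thus present in every culture, and the IL-33 cultures served as the reference for both neuropeptides. Each of the 8 combinations had 2 libraries, each made from about 500 sorted cells, and whether the libraries came from separate animals is not given in the sources used here, so that the *P* values measure the spread between these libraries, which may be technical. The mice were on a C57BL/6J background and were 6 to 8 weeks old.

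The 16 libraries held between 6764992 and 15963357 counts, with a median of 11071278. Depending on the library, 3 counts, taken as the floor, were worth 0.188 to 0.443 CPM (the counts of a gene scaled to a common library total) before TMM scaling, and it covers counting error only, because PCR copies are not independent molecules. *Dusp2*, the targeted gene, had 0 counts in 8 of 8 Pac1-/- libraries but also in 6 of 8 WT libraries, so it did not check most genotype labels. All 10 ILC2 markers examined, including *Gata3*, *Il1rl1*, and *Klrg1*, were counted in every group, and their summed level was 8608 to 14030 CPM. Some markers of other cells differed between groups. The summed level of 3 B cell markers was 107 to 119 CPM in Pac1-/- libraries with CGRP and at most 16.3 CPM in any other library. The summed level of 4 mast cell and basophil markers was 150 to 189 CPM in WT libraries with CGRP and at most 83.9 CPM elsewhere, with *Mcpt8* and *Ms4a2* at 0 in those WT libraries. The summed level of 4 T cell markers was 76.9 to 112 CPM with IL-7 and at most 28.1 CPM elsewhere, with *Cd4* and *Cd8a* at 0 with IL-7. *Cd3d* (73.9 to 103 CPM) carried this sum with IL-7, while *Cd3e* was at 1.19 to 8.97 CPM. In WT libraries with NMU, 4 epithelial markers summed to 173 to 308 CPM and 3 endothelial markers to 59.996 to 91.9 CPM, against at most 83.2 and 52.1 CPM elsewhere. *Sftpc* and *Scgb1a1* carried the epithelial sum, while *Epcam* (39.1 and 35.9 CPM) was within its range elsewhere and *Krt8* was at 0 and 2.11 CPM. The endothelial sum was nearly all *Pecam1* (56.8 and 90.4 CPM), with *Cdh5* at 3.08 and 0 CPM and *Kdr* at 0.154 and 1.56 CPM. The sum of 6 macrophage and monocyte markers was 39.6 to 123 CPM in the same WT libraries and at most 16.8 CPM elsewhere, but there it was carried by *Lyz2*, while *Csf1r*, *Itgax*, and *Marco* were at 0. Neutrophil, fibroblast, and ILC1, NK, and ILC3 markers summed to at most 16.6 CPM in any library.

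IL-6 family cytokines signal through a shared receptor chain, gp130, which is encoded by *Il6st*. IL-6 first binds the IL-6 receptor alpha chain, encoded by *Il6ra*, whereas leukemia inhibitory factor (*Lif*) and oncostatin M (*Osm*) use gp130 together with *Lifr* or *Osmr*. Ligation of gp130 activates JAK kinases and STAT3, and *Socs3* is induced as a feedback inhibitor. Transcription of *Il6* is known to be driven through binding sites for NF-kB, C/EBP, AP-1, and CREB factors near its start, and the mRNAs of such cytokines are short-lived through AU-rich elements in the 3' UTR that are bound by proteins such as tristetraprolin, the product of *Zfp36*.

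*Il6* (ENSMUSG00000025746) lies on chromosome 5 from 30013114 to 30019981 on the plus strand of mm10 (GRCm38), *Lif* (ENSMUSG00000034394) on chromosome 11 from 4257557 to 4272514, and *Osm* (ENSMUSG00000058755) on chromosome 11 from 4236420 to 4241026, so that *Osm* and *Lif* are neighbours on the same strand. *Il6st* (ENSMUSG00000021756) lies on chromosome 13 from 112464070 to 112510086 on the plus strand. *Il6ra* (ENSMUSG00000027947) lies on chromosome 3 from 89864059 to 89913196 on the minus strand and overlaps Gm42809 on the other strand. The use of strand in counting is not given in the sources used here, so reads in bases shared by these overlapping genes may not be told apart. How far their exons overlap was not examined.

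The 250 bases before the transcription start of *Il6* are shown because *Fos*, *Jun*, *Atf3*, and *Rel*, which encode factors that bind such sites, rose with CGRP. For CGRP against IL-33, *Il6* itself had log2 fold changes of -2.21 in WT and 0.26 in Pac1-/- ILC2s. Whether these factors act on *Il6* in these cells was not tested. The sequences are from RefSeq for GRCm38.p6, and 4 of the 5 genes had an entry, which *Osm* had not. Both strands were searched for CRE (TGACGTCA), its half-site (TGACG), AP-1 (TGANTCA), C/EBP (TTGCNNAA), ETS (CCGGAAGT), NFAT (TGGAAA), and STAT (TTCNNNGAA) letters and for an NF-kB motif, whose match is the last run of capitals in the *Il6* sequence, and the capitals mark matches, none of which overlap.
Il6, chr5:30012864-30013113, plus strand: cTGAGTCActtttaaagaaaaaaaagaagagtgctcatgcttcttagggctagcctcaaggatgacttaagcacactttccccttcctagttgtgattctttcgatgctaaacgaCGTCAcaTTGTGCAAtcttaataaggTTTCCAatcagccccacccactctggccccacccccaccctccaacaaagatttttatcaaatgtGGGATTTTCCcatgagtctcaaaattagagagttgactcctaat
Lif, chr11:4257318-4257567, plus strand: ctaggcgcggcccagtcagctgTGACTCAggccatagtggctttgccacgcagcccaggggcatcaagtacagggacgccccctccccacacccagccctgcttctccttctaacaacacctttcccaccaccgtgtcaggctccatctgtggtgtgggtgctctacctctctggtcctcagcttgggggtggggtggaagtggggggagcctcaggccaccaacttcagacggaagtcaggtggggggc
In the order in which they stand, the *Il6* sequence holds an AP-1 match at -249 to -243 relative to the start, a CRE half-site at -135 to -131, a C/EBP match at -128 to -121, an NFAT match at -109 to -104, and an NF-kB match at -44 to -35. Among 27025 promoters of the same length, 6.87% held the AP-1 letters, 17.9% the CRE half-site, 9.55% the C/EBP letters, 18.7% the NFAT letters, and 0.337% the NF-kB motif. The *Lif* sequence holds an AP-1 match at -228 to -222. The window of *Il6ra* holds a CRE half-site at -236 to -232, and that of *Il6st* holds none of these letters.

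The 3 cytokine genes carry the AU-rich letters TATTTAT in the 3' UTR of their GENCODE M21 transcripts, and the first site of each is shown with the letters in capitals.
Il6: tatgattgaTATTTATtatttttat
Lif: acagctgtcTATTTATtactatgtc
Osm: aagacacttTATTTATccgaatgtc
*Il6* holds 1 such site in 427 bases, *Lif* 5 in 3180 bases, and *Osm* 3 in 1017 bases. Among genes whose 3' UTR was within 20% of the same length, 10.4% held at least as many as *Il6*, 1.61% at least as many as *Lif*, and 1.92% at least as many as *Osm*. The 3' UTRs of *Il6ra* (1837 bases) and *Il6st* (5641 bases) hold none.

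*Il6* was by far the most abundant member. Over the 16 libraries, its level was 30.1 to 768 CPM after TMM scaling, with a median of 398 CPM, and it had at least 275 counts in every library. Per kilobase of exon, the scale on which genes can be compared, the median level was 164 CPM per kb for *Il6*, 3.62 for *Osm*, 0.890 for *Lif*, 0.434 for *Il6st*, and 0.0731 for *Il6ra*. *Il6* stood at the 96.9th percentile of 14721 genes in the median library, and at the 78.7th in the lowest. The other members were near the floor in some libraries, with 0 counts in 1 library each for *Lif*, *Osm*, and *Il6st* and in 4 libraries for *Il6ra*.

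*Il6* was the main ligand gene of the family, and some chains outside the 5 members were also counted throughout. *Il6* made up 73.1% to 99.8% of the summed CPM per kb of 11 ligand and partner-chain genes, with a median of 95.4%. *Ebi3*, the beta chain of IL-27 and IL-35, was counted in all 16 libraries with a median of 2.72 CPM per kb, whereas *Il27*, *Cntf*, and *Il31* had 0 counts in 16 of 16 libraries. *Il11*, *Ctf1*, *Ctf2*, and *Clcf1* had 0 counts in 11 to 15 libraries. Among the receptor chains, *Il27ra*, the IL-27 receptor alpha chain that pairs with gp130, was the only one of 8 counted in all 16 libraries, with a median of 4.05 CPM per kb. *Lifr* and *Osmr*, the partners of gp130 for LIF and oncostatin M, had 0 counts in 8 and 10 libraries and at most 36 and 47 counts.

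**Figure D1:**
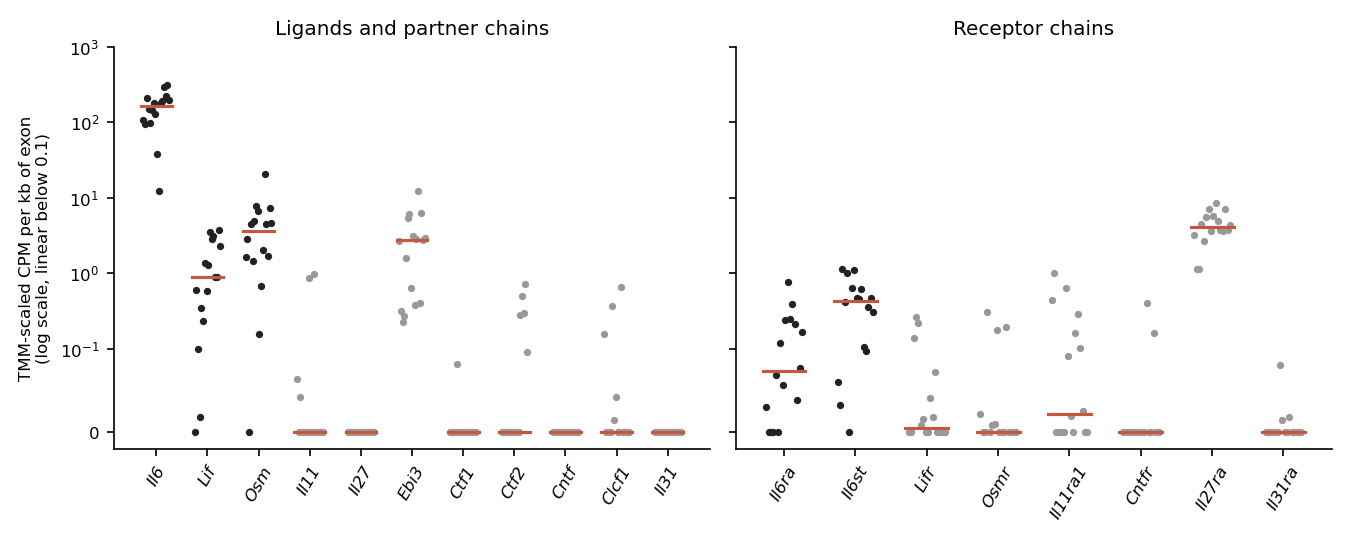
Level of the ligand and partner-chain genes (left) and the receptor chains (right) in TMM-scaled CPM per kb of exon, on a log scale that is linear below 0.1. Each point is 1 of 16 libraries, black for the 5 members and grey for the others, and the red line is the median, which is 164 for *Il6* and 4.05 for *Il27ra*.

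*Il6* was lowest with CGRP in WT cells and highest with NMU. In these bulk samples, fewer cells that express a gene and less of its RNA per cell cannot be told apart. In WT libraries it was 261 and 234 CPM with IL-7, 238 and 350 CPM with IL-33, 93.4 and 30.1 CPM with CGRP, and 715 and 539 CPM with NMU. In Pac1-/- libraries it was 515 and 363 CPM with IL-7, 440 and 318 CPM with IL-33, 434 and 466 CPM with CGRP, and 768 and 476 CPM with NMU. Both WT libraries with CGRP lay below every other library, and 3 of the 4 NMU libraries lay above all others, while the remaining one was below the highest IL-7 library. In the order of the group means, WT with CGRP (61.7 ± 44.7 CPM, SD, n = 2) was followed by WT with IL-7 (247 ± 19.2), WT with IL-33 (294 ± 79.4), Pac1-/- with IL-33 (379 ± 86.7), Pac1-/- with IL-7 (439 ± 108), Pac1-/- with CGRP (450 ± 22.7), Pac1-/- with NMU (622 ± 206), and WT with NMU (627 ± 125). From WT with IL-7 upward, each neighbouring pair differed by less than the larger of its 2 SDs.

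**Figure D2:**
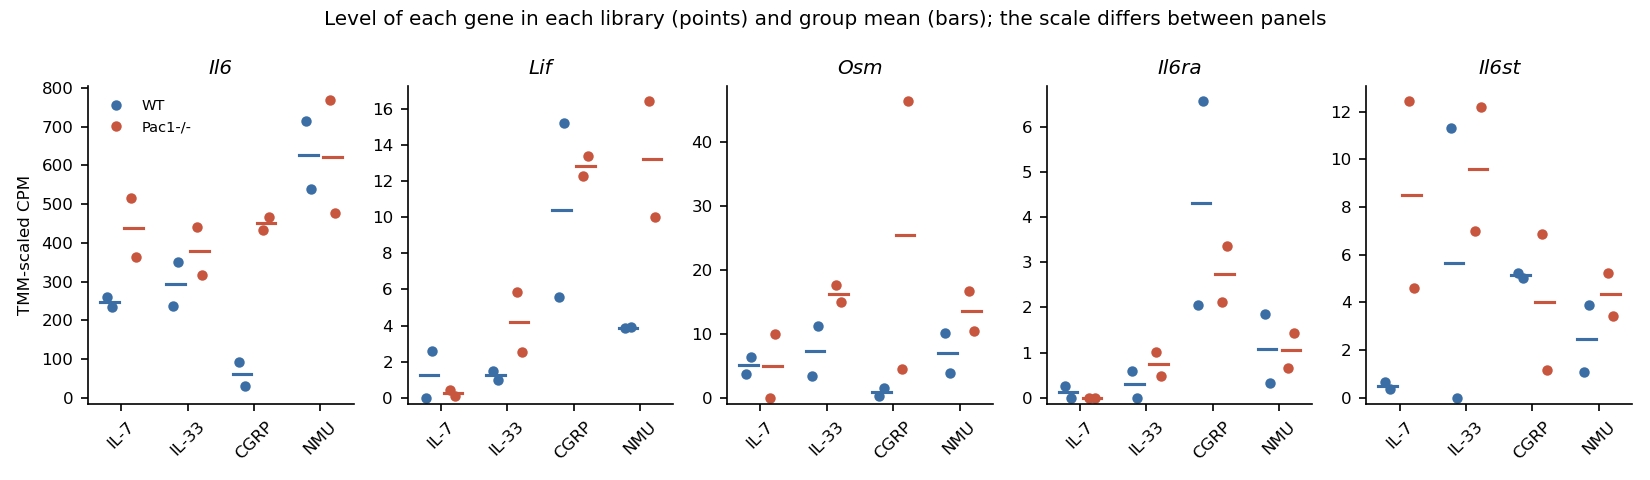
TMM-scaled CPM (y axis, a separate scale in each panel) of *Il6*, *Lif*, *Osm*, *Il6ra*, and *Il6st* with each treatment (x axis). Points are single libraries, WT in blue and Pac1-/- in red, and bars are the means of 2 libraries; the 2 WT libraries with CGRP are at 93.4 and 30.1 CPM for *Il6*, and both Pac1-/- libraries with CGRP are above 400.

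Treatments were compared over both genotypes with genotype as a covariate, on 4 libraries against 4. A gene was called where the fold change exceeded 1.5 and the adjusted *P* value of edgeR's quasi-likelihood test was under 0.05 over all genes tested. No member was called in any of the 4 comparisons, 4 members being tested for IL-33 against IL-7 and 5 in the others. Of all genes tested, 0.0462% were called for IL-33 against IL-7, 1.75% for CGRP against IL-33, 0.103% for NMU against IL-33, and 3.86% for CGRP against NMU. At an unadjusted *P* value under 0.05 by edgeR, 0 members passed for IL-33 against IL-7 and 1 for CGRP against IL-33 (*Lif*). For NMU against IL-33, 2 passed (*Il6* and *Lif*), and for CGRP against NMU, 1 (*Il6*). Over all genes, 1361 of 12980, 1992 of 13160, 972 of 12567, and 2491 of 12834 passed in these comparisons, respectively. DESeq2 with the same cutoff called *Lif* for CGRP against IL-33, *Il6* for NMU against IL-33, and no member in the other comparisons. Over all genes, it called 1078 of 13160 for CGRP against IL-33 and 170 of 12567 for NMU against IL-33.

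*Il6* had overlapping levels with IL-33 and with IL-7. The 4 IL-33 libraries had a median of 334 CPM and the 4 IL-7 libraries a median of 312 CPM, with ranges of 238 to 440 and 234 to 515 CPM, respectively. The log2 fold change was 0.021 (SE 0.22), with a 95% interval from -0.47 to 0.51. The intervals were wider for *Lif* (log2 fold change 1.94, SE 1.65), *Osm* (1.12, SE 1.19), and *Il6st* (1.76, SE 1.36), and each of them included 0. *Il6ra* was below the filter on low counts here, with 0 counts in 3 of the 4 IL-7 libraries and 4 counts in the other.

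With NMU, a neuropeptide that activates ILC2s, *Il6* was higher than with IL-33 in every library of the comparison. The 4 NMU libraries had 476 to 768 CPM and the 4 IL-33 libraries 238 to 440 CPM, and the groups did not overlap, as was the case for 4.35% of the 14979 genes. The log2 fold change was 0.91 (SE 0.26, 95% interval 0.33 to 1.49), and the adjusted *P* value was 0.449 by edgeR and 0.040 by DESeq2, so that the call depended on the test. The values within each genotype were 1.11 (SE 0.37) in WT and 0.71 (SE 0.37) in Pac1-/- ILC2s, and their difference was -0.40 (SE 0.52, adjusted *P* = 0.928 by edgeR). Some markers of other cells were also higher in the WT libraries with NMU. *Sftpc*, of alveolar epithelium, was at 178 and 94.5 CPM, and *Lyz2*, which macrophages and alveolar epithelium express, at 112 and 27.9 CPM. The epithelial marker *Epcam* was at 39.1 and 35.9 CPM, within its range elsewhere (5.80 to 80.8 CPM). The macrophage markers *Csf1r*, *Itgax*, and *Marco* were at 0 in these libraries, and *Cd68* was at 11.4 and 10.8 CPM, within its range elsewhere (0 to 15.8 CPM). In the Pac1-/- libraries with NMU, where *Il6* was at 768 and 476 CPM, *Lyz2* had 0 counts in both and *Sftpc* had 2 and 0 counts. The part of any other cells in the WT values was not tested.

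With CGRP, a neuropeptide that restrains ILC2s, the *Il6* values split by genotype, and the pooled log2 fold change against IL-33 was -0.97 (SE 0.52, 95% interval -2.15 to 0.21), with an adjusted *P* value of 0.496 by edgeR and 0.196 by DESeq2. Without a filter on low counts, edgeR gave 0.0220 and called *Il6* here. That fit called 639 genes in all, against 230 with the filter. Without the second WT library with CGRP, the log2 fold change was -0.45. Against NMU, the log2 fold change of *Il6* with CGRP was -1.87 (SE 0.58, 95% interval -3.19 to -0.56). Here the 4 CGRP libraries (30.1 to 466 CPM) lay below the 4 NMU libraries (476 to 768 CPM), as 13.3% of genes were separated in either direction. The adjusted *P* value was 0.169 by edgeR, 0.0556 by DESeq2, 0.00342 with all 16 libraries in 1 edgeR fit, and 1.99e-09 by edgeR without the filter. Over all genes, these fits called 495, 1674, 820, and 1102 for CGRP against NMU, respectively. The log2 fold change of *Il6* was -1.26 without the second WT library with CGRP.

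*Lif*, whose product maintains pluripotency in stem cells and acts on many tissues, was at higher levels with CGRP than with IL-33 in most libraries. It had 20, 10, 103, and 31 counts in the IL-33 libraries (1.49, 1.0, 5.86, and 2.52 CPM), against 63, 139, 121, and 104 counts in the CGRP libraries (5.60, 15.2, 12.3, and 13.4 CPM) and 25, 35, 172, and 111 counts in the NMU libraries (3.85, 3.90, 16.4, and 9.99 CPM), each given as 2 WT and then 2 Pac1-/- libraries. The lowest CGRP library was below the highest IL-33 library, so the groups overlapped. The log2 fold change with CGRP was 2.35 (SE 0.79, 95% interval 0.56 to 4.15). The adjusted *P* value was 0.248 by edgeR, 0.0391 by DESeq2, and 0.0185 by edgeR on genes with at least 10 counts in every library. Over all genes, these fits called 230, 1078, and 465, respectively. With NMU the log2 fold change was 1.65 (SE 0.71, adjusted *P* = 0.627 by edgeR and 0.301 by DESeq2). *Lif* was scarce with IL-7, where the 4 libraries had 0, 28, 5, and 1 counts.

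*Il6ra*, the alpha chain that binds IL-6, was highest with CGRP. The CGRP libraries had 23, 60, 21, and 26 counts (2.05, 6.57, 2.13, and 3.35 CPM) and the IL-33 libraries 8, 0, 18, and 6 counts (0.595, 0, 1.02, and 0.488 CPM). Every CGRP library lay above every IL-33 and every NMU library, a separation seen in 9.71% and 13.3% of genes, respectively. The log2 fold changes were 2.83 (SE 1.39, adjusted *P* = 0.437 by edgeR) against IL-33 and 1.70 (SE 1.13, adjusted *P* = 0.491 by edgeR) against NMU, and both 95% intervals included 0.

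*Osm* and *Il6st* varied widely between libraries of the same group. *Osm*, the gene of oncostatin M, was at 1.53 and 0.356 CPM in WT and at 4.56 and 46.5 CPM in Pac1-/- libraries with CGRP. Its log2 fold changes were -1.07 (SE 1.03) for CGRP and -0.15 (SE 0.59) for NMU, each against IL-33. *Il6st*, the gene of gp130, had 152 and 0 counts in the WT libraries with IL-33, and its log2 fold changes against IL-33 were -0.67 (SE 1.37) with CGRP and -1.15 (SE 1.18) with NMU. All 4 of these 95% intervals included 0.

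**Figure D3:**
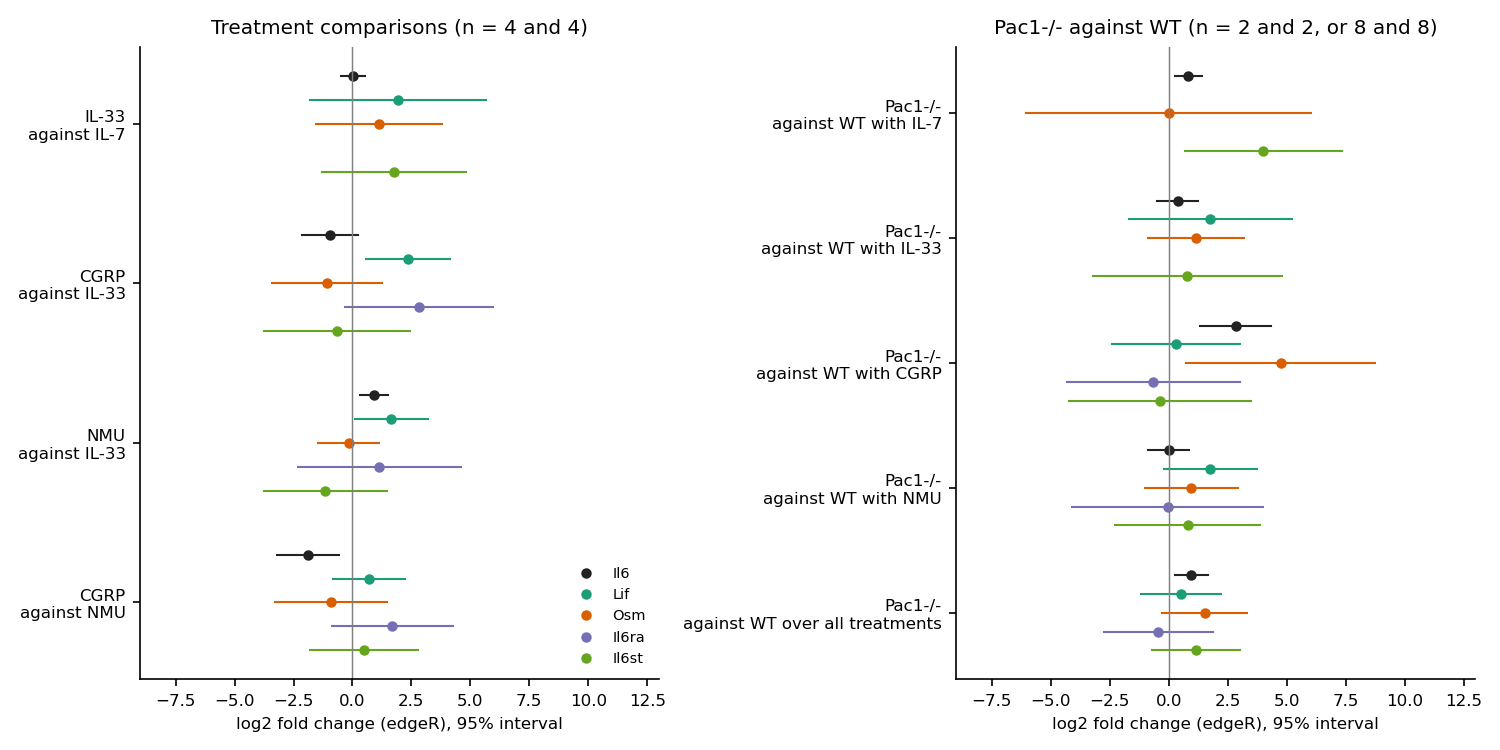
Log2 fold changes (x axis) of the members by edgeR, with 95% intervals as lines, for the treatment comparisons (left, positive is higher in the first-named treatment) and for Pac1-/- against WT (right). The *Il6* interval lies above 0 for NMU against IL-33 (0.33 to 1.49) and for Pac1-/- against WT with CGRP (1.34 to 4.35), and those of the low-count members are wider; members that did not pass the filter have no point.

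The genotypes were compared within each treatment on 2 libraries against 2, and over all treatments on 8 against 8. No member was called. All 5 were tested with CGRP, with NMU, and over all treatments, 4 in the IL-33 cultures, and 3 in the IL-7 cultures. Of all genes tested, 0.00916% were called with IL-7, 0.00874% with IL-33, 0% with CGRP, 0.0282% with NMU (0.00942% higher and 0.0188% lower), and 0.0801% over all treatments. At an unadjusted *P* value under 0.05 by edgeR, 2 members passed with IL-7 (*Il6* and *Il6st*) and 2 with CGRP (*Il6* and *Osm*). Over all treatments, 1 passed (*Il6*), and 0 with IL-33 and with NMU. Over all genes, 626 of 10912 passed with IL-7, 822 of 10912 with CGRP, and 921 of 14979 over all treatments. With IL-33 and NMU, 577 of 11448 and 535 of 10621 genes passed. DESeq2 called 1 member, *Il6* with CGRP, where it called 202 of 10912 genes, and none in the other genotype comparisons. A gene that missed this cutoff is not shown to be equal between genotypes.

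With CGRP, *Il6* was at 434 and 466 CPM in Pac1-/- and at 93.4 and 30.1 CPM in WT ILC2s. The log2 fold change was 2.85 (SE 0.57, 95% interval 1.34 to 4.35), with an adjusted *P* value of 0.552 by edgeR and 9.35e-06 by DESeq2. It was 0.0347 with all 16 libraries in 1 edgeR fit and 3.33e-13 without the filter, whereas with the replicate block it was 1.0. Over all genes, edgeR called 0 as reported, 16 with all 16 libraries in 1 fit, and 82 without the filter. These settings thus also changed the calls of other genes. The log2 fold change was 3.90 without the first WT library and 2.24 without the second, neither of them called by edgeR (adjusted *P* = 0.832 and 0.736). Groups of 2 against 2 did not overlap for 33.2% of genes here. The Pac1-/- libraries with CGRP were also those with B cell markers: *Ms4a1* was at 84.4 and 75.0 CPM, against 0 and 11.7 CPM in WT libraries with CGRP. In the WT libraries with CGRP, the mast cell and basophil marker *Cpa3* was at 150 and 174 CPM, against 79.1 and 83.6 CPM in Pac1-/-. However, *Mcpt8* and *Ms4a2*, of the same list, were at 0 in these WT libraries, and *Fcer1a* was at 0 and 15.6 CPM. *Cpa3* was at 26.3 CPM or more in every library of the series. The part of any other cells in the *Il6* values was not tested.

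The responses to each treatment were then compared between genotypes. No member was called by edgeR in the 9 comparisons of a response in WT, in Pac1-/-, or between them. Of all genes tested, 0.0077% were called for the IL-33 response in WT and 0.0154% in Pac1-/-, 0.137% and 0.357% for the CGRP response, 0.0398% and 0.0716% for the NMU response, and 0% for each of the 3 differences. At an unadjusted *P* value under 0.05 by edgeR, *Il6* and *Lif* passed for the CGRP response in WT. *Il6* alone passed for the difference of this response between genotypes and for the NMU response in WT. Over all genes, 1339 of 13160, 719 of 13160, and 606 of 12567 passed in these comparisons, respectively. In the other 6, 0 members and 675 to 1345 genes passed. DESeq2 called *Il6* for the CGRP response in WT and for its difference between genotypes, and no member in the other 7. Over all genes, DESeq2 called 588 and 90 of 13160 for this response and its difference, respectively.

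For *Il6*, the values of the CGRP response lay apart between genotypes, and whether the difference was called depended on the test. In WT ILC2s, *Il6* was lower with CGRP than with IL-33, with a log2 fold change of -2.21 (SE 0.49, 95% interval -3.34 to -1.08). In Pac1-/- ILC2s it was 0.26 (SE 0.49, 95% interval -0.86 to 1.39). The difference between these responses was 2.47 (SE 0.69, 95% interval 0.88 to 4.07). By edgeR, the adjusted *P* values were 0.248 for the WT response, 0.931 for the Pac1-/- response, and 0.853 for the difference; by DESeq2 they were 0.000306, 0.910, and 0.0304. The edgeR call for the WT response was gained without the first WT library with CGRP (log2 fold change -3.29, adjusted *P* = 0.00325) and without either Pac1-/- library with CGRP (-2.25 in both, adjusted *P* = 0.0268 and 0.0363). It was not gained without any of the other 5 libraries, where the value was weakest without the second WT library with CGRP (-1.66, adjusted *P* = 0.0984) and the adjusted *P* value reached 0.456. The difference between the responses was 3.53 without the first WT library with CGRP and 1.90 without the second.

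**Figure D4:**
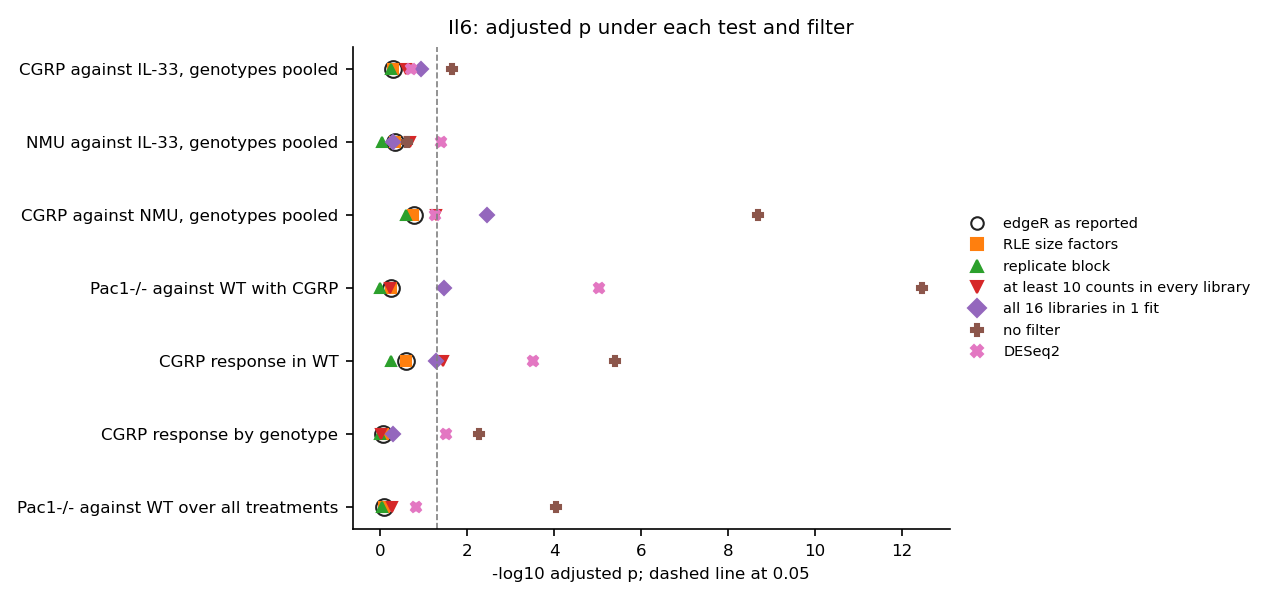
Adjusted *P* value of *Il6* as -log10 (x axis) in 7 comparisons (y axis), under edgeR as reported (open circles) and 6 other fits (other symbols), with the 0.05 cutoff as a dashed line. The open circles all lie left of the line, and DESeq2 lies right of it for NMU against IL-33, Pac1-/- against WT with CGRP, and both the WT response to CGRP and its difference between genotypes.

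With the other treatments, the log2 fold changes of *Il6* between genotypes were smaller in value. The log2 fold change in Pac1-/- against WT was 0.83 (SE 0.22, 95% interval 0.26 to 1.40) with IL-7, where the groups did not overlap, as for 28.8% of genes. It was 0.38 (SE 0.38, 95% interval -0.49 to 1.24) with IL-33 and -0.010 (SE 0.36, 95% interval -0.87 to 0.85) with NMU. Over all treatments it was 0.96 (SE 0.33, adjusted *P* = 0.803 by edgeR and 0.146 by DESeq2), and without the second WT library with CGRP it was 0.67.

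*Osm* was at 4.56 and 46.5 CPM in Pac1-/- against 1.53 and 0.356 CPM in WT ILC2s with CGRP, a log2 fold change of 4.74 (SE 1.51, 95% interval 0.73 to 8.76). The adjusted *P* value was 0.643 by edgeR and 0.0726 by DESeq2, and the value rested largely on 1 library, since it was 2.25 without the second Pac1-/- library. *Osm* was also above WT in both Pac1-/- libraries with IL-33 (17.7 and 15.0 against 3.35 and 11.2 CPM) and with NMU (16.8 and 10.5 against 10.2 and 3.90 CPM), with log2 fold changes of 1.17 (SE 0.89) and 0.96 (SE 0.83). Groups of 2 were likewise separated for 32.2% of all genes with IL-33 and 30.2% with NMU. With IL-7 it had 0 and 127 counts in Pac1-/- and 56 and 70 counts in WT libraries. Over all treatments the log2 fold change of *Osm* was 1.52 (SE 0.85, adjusted *P* = 0.900 by edgeR).

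*Lif* was higher in both Pac1-/- libraries than in both WT libraries with NMU (16.4 and 9.99 against 3.85 and 3.90 CPM) and with IL-33 (5.86 and 2.52 against 1.49 and 1.0 CPM). A separation of this kind was seen in 30.2% and 32.2% of all genes, respectively. The log2 fold changes of *Lif* were 1.77 (SE 0.83, adjusted *P* = 0.982 by edgeR) and 1.76 (SE 1.5, adjusted *P* = 1.0 by edgeR). With CGRP it was 0.29 (SE 1.02). In the CGRP libraries, *Lif* was above IL-33 in both genotypes, by log2 fold changes of 3.09 (SE 1.15) in WT and 1.63 (SE 1.14) in Pac1-/- ILC2s, and the difference of -1.46 (SE 1.62) had an interval that included 0.

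The receptor chains held few counts. *Il6st* with IL-7 had 10 and 4 counts in WT and 143 and 58 counts in Pac1-/- libraries, a log2 fold change of 4.01 (SE 1.28, 95% interval 0.70 to 7.33) with an adjusted *P* value of 0.788 by edgeR and 0.363 by DESeq2. With IL-33 its log2 fold change was 0.79 (SE 1.75), with CGRP -0.37 (SE 1.45), and with NMU 0.80 (SE 1.29). In the IL-33 libraries, leaving out the first WT library, which held 152 counts against 0 in the other, led edgeR to call *Il6st* (adjusted *P* = 0.0362), against a WT library at 0. *Il6ra* differed by -0.66 (SE 1.37) with CGRP and -0.036 (SE 1.70) with NMU, and it had 0 counts in both Pac1-/- libraries with IL-7.

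Over the 16 libraries, the members did not rise and fall as a group. As a description without a test, Pearson's r of the log2 levels was 0.77 for *Lif* and *Il6ra*, 0.49 for *Il6* and *Osm*, and -0.46 for *Il6* and *Il6ra*. It lay between -0.33 and 0.27 for the other 7 pairs. By ranks, Spearman's rho was 0.80, 0.42, and -0.019 for the named pairs in the same order. These libraries share treatments, and *Lif* and *Il6ra* hold few counts. Of the 6525 genes that averaged 10 CPM or more, those most like *Il6* in log2 CPM over the 16 libraries were *9430038I01Rik* (r = 0.93), *Necap1* (r = 0.91), and *Bscl2* (r = 0.90). Those most like *Osm* were *Bud23* (r = 0.82), *Nup93* (r = 0.81), and *Dhx15* (r = 0.79). The other members had means under 10 CPM and were not ranked.

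Among the other genes of the pathway, some were called with CGRP. Of 60 listed genes other than the members, 51 were tested for CGRP against IL-33; 8 rose and 1 fell, and over all genes 1.53% were called higher and 0.213% lower. For CGRP against NMU, 46 were tested, 10 rose, and 1 fell, where 2.42% and 1.44% of all genes were called. None was called by edgeR or DESeq2 for IL-33 against IL-7, for NMU against IL-33, or between genotypes over all treatments. At an unadjusted *P* value under 0.05 by edgeR, 2 of 50, 5 of 46, and 6 of 52 listed genes passed, respectively. Over all genes, 1361 of 12980, 972 of 12567, and 921 of 14979 passed. The median log2 fold change of the listed genes for CGRP against IL-33 was 0.14, against -0.089 over all genes.

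In the list of 17 inducers of *Il6* and regulators of its mRNA, 6 rose with CGRP against IL-33. *Fos*, an AP-1 subunit, was at 410 to 591 CPM with CGRP and at 24.6 to 48.8 CPM with IL-33, a log2 fold change of 3.73 (SE 0.20, adjusted *P* = 0.000197 by edgeR). *Jun*, its partner, rose by 4.17 on the log2 scale (SE 0.58), and *Atf3*, an ATF/CREB family member, by 3.28 (SE 0.31). *Rel*, an NF-kB subunit, rose by 2.15 (SE 0.25), and *Nfkbiz*, which encodes IkB-zeta, a nuclear cofactor of NF-kB that is needed for *Il6* induction in macrophages, rose by 2.10 (SE 0.24). *Zfp36*, the gene of tristetraprolin, rose by 2.75 (SE 0.31, adjusted *P* = 0.00627 by edgeR), from 9.22 to 17.7 CPM with IL-33 to 73.2 to 102 CPM with CGRP. Against NMU, in a comparison that shares the CGRP libraries, *Fos* rose by 4.08 (SE 0.22), *Jun* by 4.91 (SE 0.40), *Atf3* by 2.76 (SE 0.35), *Rel* by 1.49 (SE 0.26), *Nfkbiz* by 1.74 (SE 0.24), and *Zfp36* by 2.28 (SE 0.25). *Crem*, a CRE-binding factor, rose by 0.88 (SE 0.16) against NMU.

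In the list of 16 STAT3 targets, 2 rose with CGRP against IL-33, *Fos* and *Junb* (by 3.12, SE 0.29), and *Batf*, an AP-1 family factor, fell by 1.71 (SE 0.33). In the feedback list of 10 genes, *Socs2* rose by 1.17 (SE 0.17). *Socs3*, the usual feedback inhibitor of gp130, was at most 4.89 CPM in any library and was not called (log2 fold change 2.35, SE 1.92). *Stat3* itself had medians of 90.9 CPM with IL-33 and 62.0 CPM with CGRP, with a log2 fold change of -0.37 (SE 0.28), and none of the 7 JAK-STAT genes was called. *Ccnd1*, the gene of cyclin D1, was called higher with CGRP than with NMU, with 3.40 to 13.1 CPM against 0 to 0.0900 CPM.

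**Figure D5:**
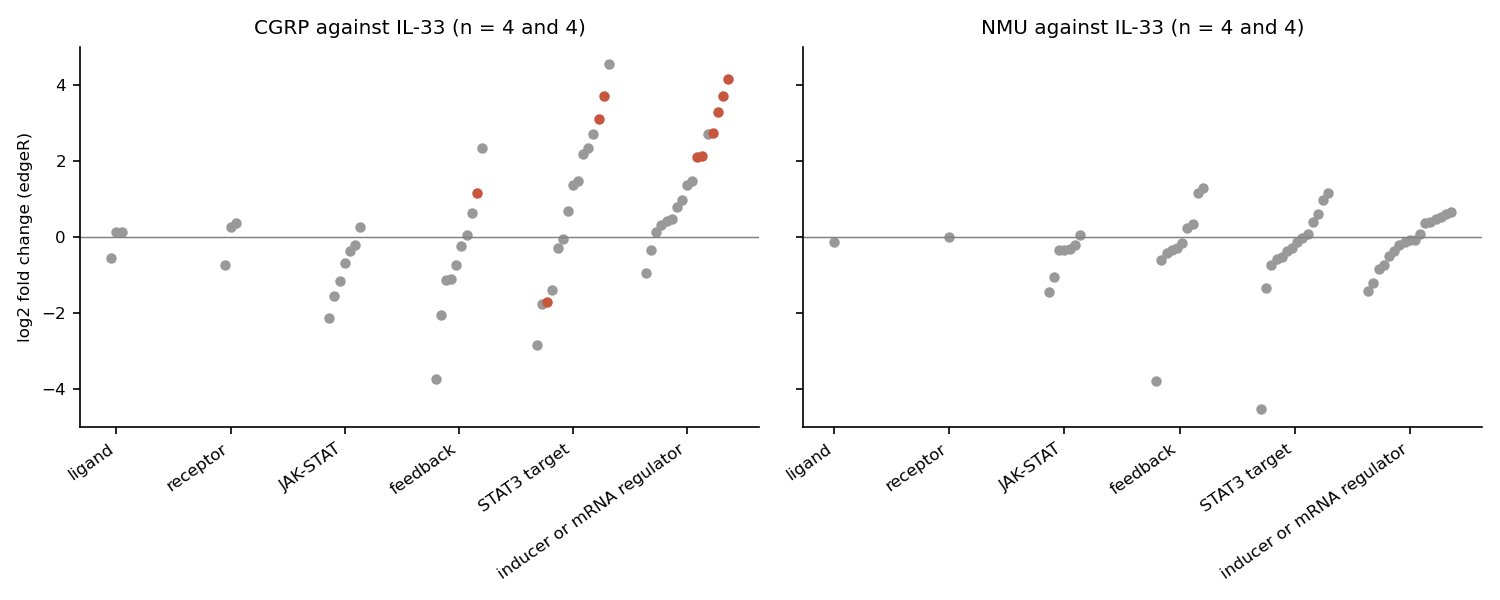
Log2 fold changes by edgeR (y axis) of the listed pathway genes other than the members, for CGRP against IL-33 (left) and NMU against IL-33 (right), which share the IL-33 libraries. Each point is a gene, grouped by list (x axis) and red where called; the called genes with CGRP include *Fos* (3.73) and *Jun* (4.17), and none is called with NMU.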

How the data were processed

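The authors sorted lung ILC2s after treatment, amplified full-length cDNA, sequenced paired-end reads, and aligned them to mm10 with HISAT2. The values they deposited are raw read counts of Ensembl genes in each library, not normalized. The counting tool, annotation release, and use of strand are not given in the sources used here. The genes and lists were chosen with earlier results of these data known, so that no list is independent evidence. Symbols were found for 51633 of 51912 identifiers. Groups came from the sample labels.

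Counts were scaled by TMM, filtered with filterByExpr, and tested with the quasi-likelihood test of edgeR 4.0.16 in R 4.3.3, with Benjamini-Hochberg adjustment over all genes tested. The cutoff was a fold change above 1.5 and an adjusted *P* value under 0.05. SEs are Wald SEs of the fit, and intervals are at 95%. Treatment comparisons used 8 libraries with genotype as a covariate, genotype comparisons 4 libraries, or 16 with treatment as a covariate, and responses by genotype an interaction term. The edgeR fits were tested on simulated data. The named genes were the members, the listed genes called in a comparison over both genotypes or over all treatments, and the 3 genes most like each member of at least 10 CPM. *Socs3*, *Stat3*, the marker genes, and the other ligand and receptor genes fall outside this rule and were named after their values were seen.

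The fits were repeated with DESeq2 1.42.0, with RLE size factors, without a filter or with a minimum of 10 counts per library, without the fold change cutoff, with a block for the replicate number, on all 16 libraries together, and with 1 library dropped at a time. Lengths and positions came from GENCODE M21, whose 3' UTR sequences were also used.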

Additional observations from a re-analysis of the deposited data

How the results depend on the processing

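The number of members called, 0 in all 18 comparisons, rose to 1 under some alternatives. It was 1 by DESeq2 for CGRP against IL-33 (*Lif*) and, in each case for *Il6*, for NMU against IL-33, Pac1-/- against WT with CGRP, the CGRP response in WT, and the CGRP response between genotypes. With no filter it was 1 (*Il6*) for CGRP against IL-33, CGRP against NMU, and Pac1-/- against WT with CGRP and over all treatments. It was also 1 (*Il6*) with no filter for the CGRP response in WT and between genotypes. Over all genes, edgeR with no filter called 639, 1102, 82, 62, 267, and 44 in these comparisons, in the order named. The fit as reported called 230, 495, 0, 12, 18, and 0, so calls rose broadly with no filter. With all 16 libraries in 1 fit it was 1 (*Il6*) for CGRP against NMU and Pac1-/- against WT with CGRP. That fit called 820 and 16 genes in all, respectively. With at least 10 counts in every library it was 1 for CGRP against IL-33 (*Lif*) and the CGRP response in WT (*Il6*). Over all genes, 465 and 70 were called there, respectively. Leaving out 1 library gave 0 to 1 for Pac1-/- against WT with IL-33 and for the CGRP response in WT. RLE size factors, the adjusted *P* value alone, and the replicate block called no member. The number of all genes called also depended on the test, with 230 by edgeR and 1078 by DESeq2 for CGRP against IL-33, 13 and 170 for NMU against IL-33, 0 and 202 for Pac1-/- against WT with CGRP, and 12 and 77 over all treatments. The cause of these differences was not tested. A group reduced to 1 library was assumed to vary like the others.

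Outside the fits that leave out a library, 19 of 530 log2 fold changes of the members changed sign, none of them called. With RLE size factors, *Il6* was -0.0035 for IL-33 against IL-7, *Il6* was 0.0037 for Pac1-/- against WT with NMU, *Il6st* was 0.024 for the NMU response between genotypes, and *Lif* was 0.031 for the NMU response between genotypes. With DESeq2, *Il6* was -0.0036 for IL-33 against IL-7, *Il6* was 0.0037 for Pac1-/- against WT with NMU, *Il6st* was 0.026 for the NMU response between genotypes, and *Lif* was 0.025 for the NMU response between genotypes. With the replicate block, *Il6ra* was 0.28 for Pac1-/- against WT with NMU, *Lif* was 2.01 for the IL-33 response in WT, *Il6st* was 2.55 for the CGRP response in WT, *Osm* was -0.14 for the CGRP response in Pac1-/-, *Il6st* was 1.01 for the NMU response in WT, *Osm* was 0.057 for the NMU response in WT, and *Lif* was 0.048 for the NMU response between genotypes. With no filter, *Il6st* was 0.0099 for the NMU response between genotypes and *Lif* was 0.0053 for the NMU response between genotypes. With all 16 libraries in 1 fit, *Il6st* was 0.033 for the NMU response between genotypes and *Lif* was 0.024 for the NMU response between genotypes. Deviations of same-numbered libraries correlated between -0.064 and 0.039 over 28 pairs of groups, so no strong shared deviation was seen. Such values cannot show whether same-numbered libraries share an animal or a day. The block added no call of a member. Of the other pathway genes, 8 rose and 1 fell with CGRP against IL-33, against 6 and 0 with the block and 12 and 1 by DESeq2.

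Leaving out 1 library changed the sign in 50 of 636 fits, and the affected results had these ranges. IL-33 against IL-7 gave -0.15 to 0.18 for *Il6* and -0.90 to 2.41 for *Il6st*. CGRP against IL-33 gave -1.21 to 0.29 for *Il6st*. NMU against IL-33 gave -1.60 to 0.32 for *Il6st* and -0.50 to 0.23 for *Osm*. Pac1-/- against WT with IL-7 gave -8.99 to 0.99 for *Osm*. Pac1-/- against WT with IL-33 gave -0.21 to 9.998 for *Il6st*. Pac1-/- against WT with CGRP gave -1.26 to 0.39 for *Il6ra*, -2.14 to 0.40 for *Il6st*, and -0.25 to 1.16 for *Lif*. Pac1-/- against WT with NMU gave -0.40 to 0.30 for *Il6* and -0.80 to 1.62 for *Il6ra*. The IL-33 response in WT gave -0.061 to 0.51 for *Il6*, -5.75 to 4.42 for *Il6st*, -1.04 to 7.04 for *Lif*, and -0.60 to 1.15 for *Osm*. The IL-33 response in Pac1-/- gave -0.48 to 0.084 for *Il6* and -0.38 to 1.09 for *Il6st*. The IL-33 response between genotypes gave -4.24 to 5.92 for *Il6st* and -3.06 to 5.63 for *Lif*. The CGRP response in WT gave -1.13 to 8.85 for *Il6st*. The CGRP response in Pac1-/- gave -1.84 to 1.497 for *Osm*. The NMU response in WT gave -2.37 to 7.78 for *Il6st* and -0.88 to 1.08 for *Osm*. The NMU response in Pac1-/- gave -0.18 to 1.07 for *Il6ra* and -0.65 to 0.039 for *Osm*. The NMU response between genotypes gave -6.12 to 0.29 for *Il6ra*, -8.93 to 1.21 for *Il6st*, -0.45 to 0.73 for *Lif*, and -1.35 to 0.61 for *Osm*. Pac1-/- against WT over all treatments gave -0.81 to 0.17 for *Il6ra*. The low counts of *Lif*, *Il6ra*, and *Il6st* limit these values, and a value with a group left at 0 counts is set by the prior count of the fit. The group levels of the members moved by less than 1 SD with RLE size factors in 40 of 40 cases and with CPM by total count in 36 of 40.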
